A study of Arabidopsis thaliana with 4 samples.

Results

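The tiles of plates TA01 to TA21 of an Arabidopsis thaliana tiling array were examined for their histone H3 signal against input DNA. A tile is 1 array feature, named by a plate, a row letter and a well, so that TA01A08 is well 8 of row A on plate TA01. The set held all features whose code begins with TA01 to TA21 and that carried a value on all 4 arrays, which gave 2002 tiles on 21 plates out of 21732 measured features (9.21%). The tiles were taken in code order, and no filter on low values was applied, so all 2002 entered the fit described below. The upper edge of the set was chosen by the measured scores, because a run of plates with high median scores in both replicates begins at TA22. Plate TA21, just inside the edge, had median scores of 0.08 units (replicate 1) and 0.12 (replicate 2). Plate TA22, just outside it, had medians of 0.36 and 0.66. All values of these tiles, including the counts of tiles called in the fit over all features, are therefore given as a description and support nothing further.

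The study had 1 group of samples, untreated 10 day old seedlings of the ecotype Col-0 grown in liquid MS medium, from which chromatin was precipitated with an antibody against H3 and compared with its own input. It had 2 replicates, each hybridised on a pair of arrays with the dyes exchanged. The arrays of a pair carried the same value at every one of the 21732 features, so each replicate gave 1 value per tile and n = 2. There was no mutant, treated or mock-precipitated group, and whole seedlings mix many cell types, so a score is an average over them.

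Histone H3 is a core protein of the nucleosome, the unit around which DNA is wrapped. An antibody that recognises H3 regardless of its modifications is used to map how densely nucleosomes cover the DNA. In plants, as in other eukaryotes, nucleosomes are generally dense in silent, repeat-rich chromatin and thinned out at the promoters of active genes. That is background on the assay and was not measured here.

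The deposited score was read as the logarithm of a ratio between precipitate and input, with the base and the numerator not given in the sources used here. Each replicate was set to 0 at its median over all features. "Above" and "below" refer to that array median in score units, and carry no direction for H3 itself. The codes were not matched to genes or positions (0 of 2002 were found in the gene table used), so the tiles are described by code and by their order.

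As a whole the tiles lay close to the array median, with long tails on both sides. The median of the 2002 tiles was 0.006 units (replicate 1) and -0.03 (replicate 2), a mean of -0.01 ± 0.03 (SD, n = 2). The middle of the distribution, from the lower to the upper quartile, ran from -0.12 to 0.12 units in replicate 1 and from -0.28 to 0.21 in replicate 2. The extremes reached -1.89 and 1.39 units in replicate 1 and -1.69 and 1.84 in replicate 2. Replicate 2 was the more spread, with an SD over tiles of 0.37 units against 0.23, a ratio of 1.61, and its SD was the larger on each of the 21 plates.

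**Figure D1:**
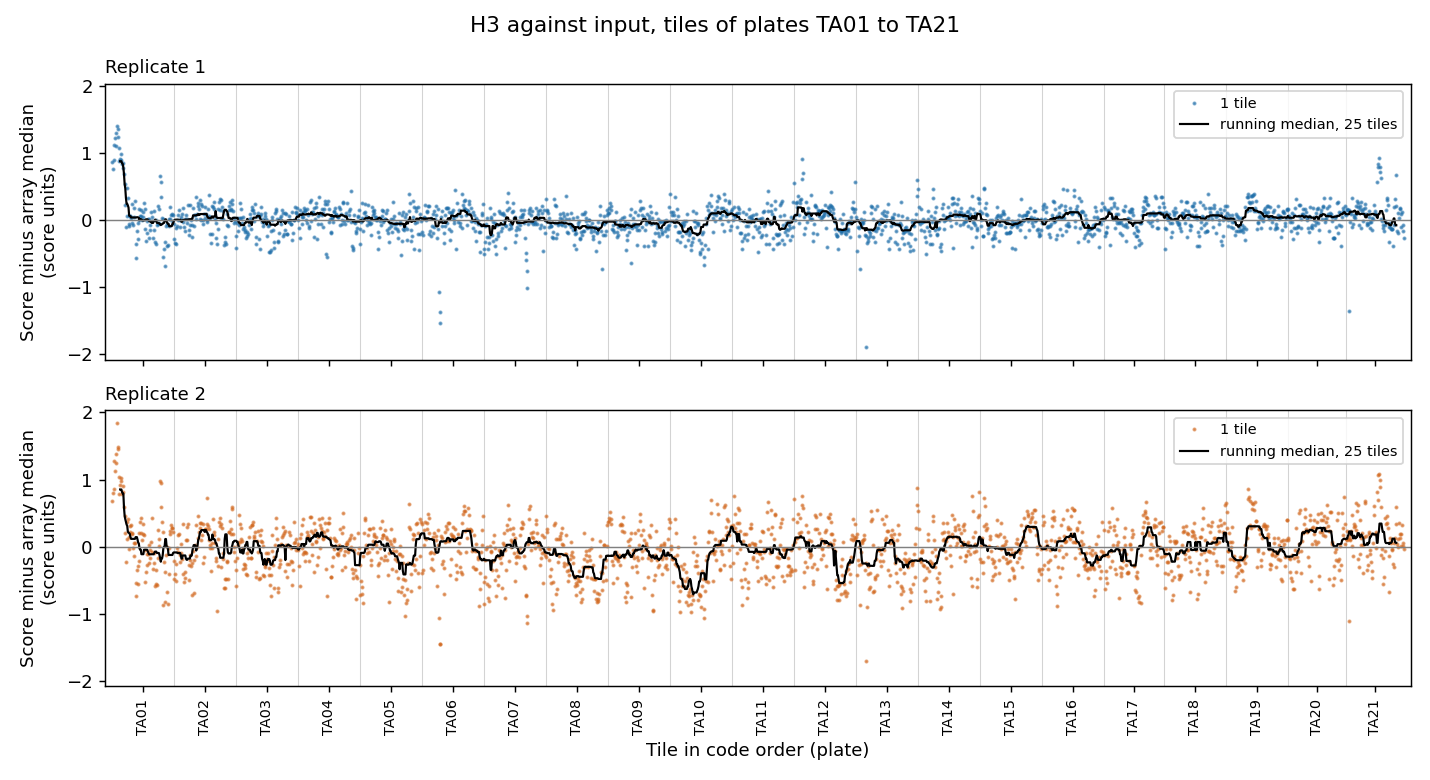
Score minus the array median (vertical axis, score units) of the 2002 tiles in code order (horizontal axis, plates separated by grey lines), replicate 1 on top and replicate 2 below; points are tiles and the black line is a running median over 25 tiles. The first tiles of TA01 stood highest in both replicates, and isolated deep lows lay in TA06, TA07, TA13 and TA21.

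In limma's moderated test of the mean of both replicates against the array median, fitted and adjusted by Benjamini-Hochberg over all features at 5%, 251 of the tiles (12.5%) passed above and 395 (19.7%) below. Over all features 17.0% passed above and 19.4% below. The fit gave every feature the same standard error, 0.11 units, so a tile passed once its mean lay at least 0.26 units from the median, whatever its own spread. The balance depended on the setting: without centring 650 tiles passed above and 98 below, and with trend and robust variance 83 and 8. Over all features these settings gave 34.6% above and 3.70% below, and 9.95% and 0.175%. With the runs of high plates left out of the centring and the fit, 301 tiles passed above and 305 below. Of the 18445 features in that fit, 11.6% passed above and 17.5% below. Of the 646 tiles that passed, 634 lay on the same side in both replicates. The tiles passed on the mean of these same replicates, whose median gap over the set was 0.15 units. A shared side was thus largely set by the threshold of 0.26 units. The same count over all features was not made.

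With the replicates averaged and a fixed distance of 0.5 units or more, 45 tiles (2.25%) lay above, against 6.65% of all features, and 89 (4.45%) lay below, against 3.23%. The shares over all features include the runs of high plates, which the set leaves out. Outside those runs, plates TA29 to TA34 had 3.79% above and 1.81% below. TA52 to TA99 had 2.85% and 3.13%, and TB00 to TB49 had 1.21% and 3.61%. The counts of 45 and 89 leaned on replicate 2. In replicate 1 alone 36 tiles lay that far above and 23 below, where the shares over all features were 5.01% and 1.10%. In replicate 2 alone there were 109 above and 227 below, where the shares over all features were 10.6% and 10.1%. Of the 45 high tiles, 34 passed 0.5 units in each replicate separately, and of the 89 low tiles 21 did. Over all features 1029 of 1445 did so above and 199 of 702 below, so the contrast between the sides was present on the whole array. At 1 unit or more, 10 of the tiles lay above and 6 below. On the whole array there were 19 such features above (0.0874%) and 23 below (0.106%).

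The high extremes were concentrated at the start of plate TA01. Of the 45 tiles 0.5 units or more above, 21 were in TA01, 8 in TA21, 4 in TA12 and 4 in TA19, and the remaining 8 were spread over 7 plates. Of the 10 tiles at least 1 unit above, 9 were in TA01 and 1, TA21E05, was in TA21.

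The first 19 tiles in the code order, TA01A01 to TA01B07, formed 1 unbroken stretch past the threshold. TA01A01, the first tile, had 0.86 units in replicate 1 and 0.68 in replicate 2. TA01A04 had 1.11 and 1.28, and TA01A06 had 1.30 and 1.25. These 3 tiles lay on a rise that led to the top of row A.

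The top was at TA01A08, with 1.39 units in replicate 1 and 1.84 in replicate 2, ranked first among all 21732 features. TA01A09, with 1.35 and 1.49, and TA01A10, with 1.23 and 1.45, ranked 2 and 3. TA01A06 and TA01A07 (1.11 and 1.38) ranked 4 and 5, so the top 5 features of the array were successive wells of 1 row. TA01A11 then dropped to 0.87 and 0.79, and TA01A12 stood again at 1.07 and 1.03.

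Each of the 12 tiles of row A reached 0.75 units or more in replicate 1 and 0.68 or more in replicate 2. The stretch continued into row B, where TA01B03 had 0.98 and 1.02 units, and it ended at TA01B07 with 0.68 and 0.59. The next tile, TA01B08, had 0.22 and 0.21. After it the scores alternated, with 0.54 and 0.46 at TA01B09, -0.11 and -0.22 at TA01B10 and 0.47 and 0.37 at TA01B11. Both replicates showed each of these turns. These tiles of row B after TA01B07 were picked after their values had been seen.

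Over the 19 tiles, replicate 1 ranged from 0.68 to 1.39 with a median of 0.91, and replicate 2 from 0.59 to 1.84 with a median of 0.97. Replicate 2 was the higher at 10 of the 19 tiles. The other 77 tiles of TA01 had medians of 0.003 and -0.001 units, with 7 past the threshold above and 15 below. By row, the median of the mean score was 1.18 units in row A, 0.72 in row B, 0.13 in row C and between -0.14 and 0.05 in rows D to H.

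**Figure D2:**
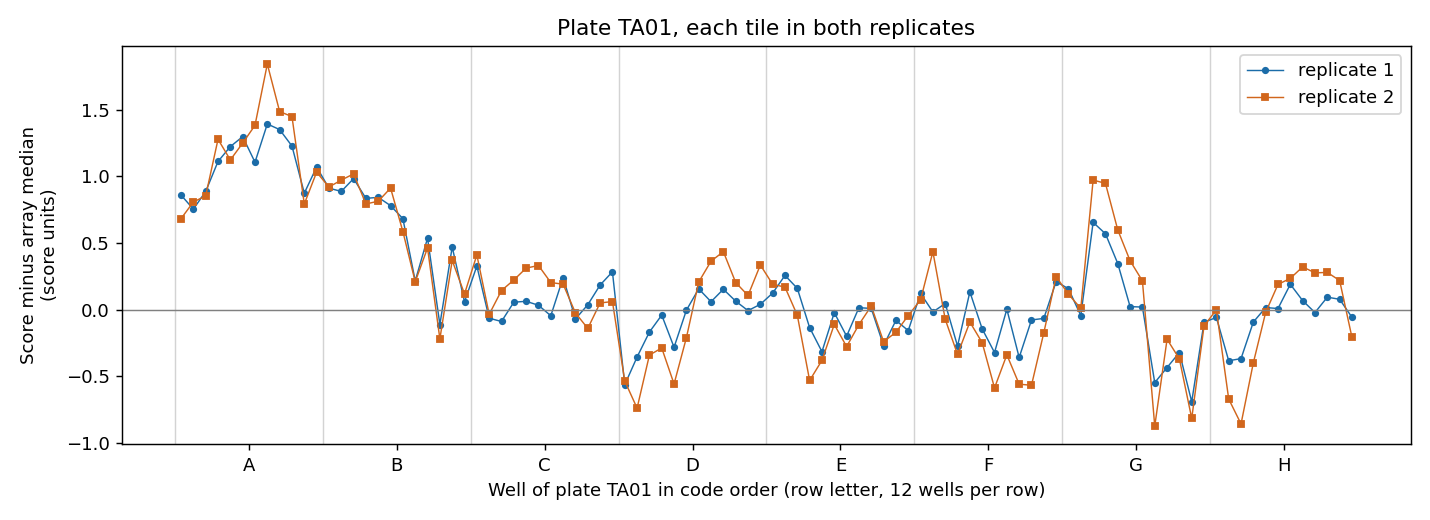
Score minus the array median (vertical axis, score units) of each of the 96 tiles of plate TA01 in code order (horizontal axis, rows A to H of 12 wells), blue circles for replicate 1 and orange squares for replicate 2. The first 19 tiles lie between 0.59 and 1.84 units, and a second, narrower high lies at TA01G03 to TA01G05.

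A second high in the same plate was 3 tiles wide, flanked by means of -0.02 units at TA01G02 and 0.19 at TA01G06. TA01G03 had 0.65 units in replicate 1 and 0.97 in replicate 2, TA01G04 had 0.57 and 0.95, and TA01G05 had 0.35 and 0.60. Further along the row, TA01G08 had -0.55 and -0.87 and TA01G11 had -0.69 and -0.82, the latter among the 10 lowest of the set. Row G alone thus spanned from -0.75 to 0.81 units in the mean of the replicates.

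The other block with scores near 1 unit was in row E of plate TA21, 7 tiles from TA21E02 to TA21E08. TA21E02 opened it with 0.56 units in replicate 1 and 0.81 in replicate 2. TA21E05, its highest tile, had 0.92 and 1.08. TA21E08 closed it with 0.62 and 0.59. The tiles on either side were near the array median, with means of 0.15 units at TA21E01 and -0.06 at TA21E09, so the block began and ended within 1 tile. Its medians were 0.78 and 0.89 units.

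The next of the longest stretches above, TA17F05 to TA17F11, also had 7 tiles but was lower. TA17F05 had 0.29 and 0.37 units, its highest tile TA17F08 had 0.33 and 0.66, and TA17F11 had 0.23 and 0.36. The stretch medians were 0.28 units in replicate 1 and 0.44 in replicate 2, a ratio of 1.55 against 1.07 in the block of TA01. It was flanked by means of 0.21 and 0.10 units and had no sharp edge.

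Other stretches above were shorter. There were 143 in all, of which 83 were single tiles, 43 were pairs and 17 had 3 tiles or more. Those 17 held 82 of the 251 tiles above (32.7%). The tallest of the short ones was TA12B01 to TA12B03, where TA12B02 had 0.90 units in replicate 1 and 0.75 in replicate 2. The next tile, TA12B04, fell to 0.04 and -0.60, a place where the replicates parted. TA12B02 was named after its value had been seen.

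The lows differed in shape. At the 6 tiles at -1 unit or lower, replicates lay at most 0.24 units apart, while the longest stretches were shallow in replicate 1 and deeper in replicate 2. There were 202 stretches below, of which 114 were single tiles, 46 were pairs and 42 had 3 tiles or more. Those 42 held 189 of the 395 tiles below (47.8%).

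The lowest tile was TA13B05, with -1.89 units in replicate 1 and -1.69 in replicate 2, the fourth lowest feature of the array. The tile before it, TA13B04, had a mean of -0.24 units and the tile after it, TA13B06, a mean of -0.62. The step from TA13B04 to TA13B05 was -1.66 units in replicate 1 and -1.44 in replicate 2. Among the 2001 steps between successive tiles it was the largest in the mean score, where the median absolute step was 0.14 units and the 90th percentile 0.39.

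TA13B05 opened a stretch of 7 tiles past the threshold, up to TA13B11, with medians of -0.26 units in replicate 1 and -0.60 in replicate 2.

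Plate TA06 held a notch of 3 tiles with steep walls. TA06C03 had -1.07 units in replicate 1 and -1.06 in replicate 2, TA06C04 had -1.54 and -1.45, and TA06C05 had -1.37 and -1.45. The tiles outside it, TA06C02 with a mean of -0.05 units and TA06C06 with 0.10, were at the array median. The replicates differed by at most 0.09 units within the notch.

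In plate TA21 the low was 1 tile wide. TA21A05 had -1.35 units in replicate 1 and -1.11 in replicate 2. Its neighbours TA21A04 and TA21A06 had means of 0.16 and 0.03 units. The plate with this low also held the high block of row E.

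The low of plate TA07 was a slope with 1 steep side. From TA07F04 to TA07F08 replicate 1 went from -0.27 through -0.48, -0.59 and -0.76 to -1.02 units. Replicate 2 went from -0.32 through -0.71, -0.74 and -1.13 to -1.03. The following tile, TA07F09, was back at a mean of -0.01 units. TA07F07 and TA07F08 were among the 10 lowest tiles, and the tiles before them were named after their values had been seen.

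The 10 lowest tiles were completed by TA13A07, with -0.72 units in replicate 1 and -0.86 in replicate 2, and by TA10E06, with -0.68 and -1.05. TA13A07 stood alone, between neighbours with means of -0.06 and -0.12 units. TA10E06 lay inside the longest stretch below. Of the 8 steps larger than 1 unit among the tiles, 7 led into or out of a tile at -1 unit or lower, and the eighth, from TA14G12 to TA14H01, went from a mean of -0.49 units to 0.56.

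**Figure D3:**
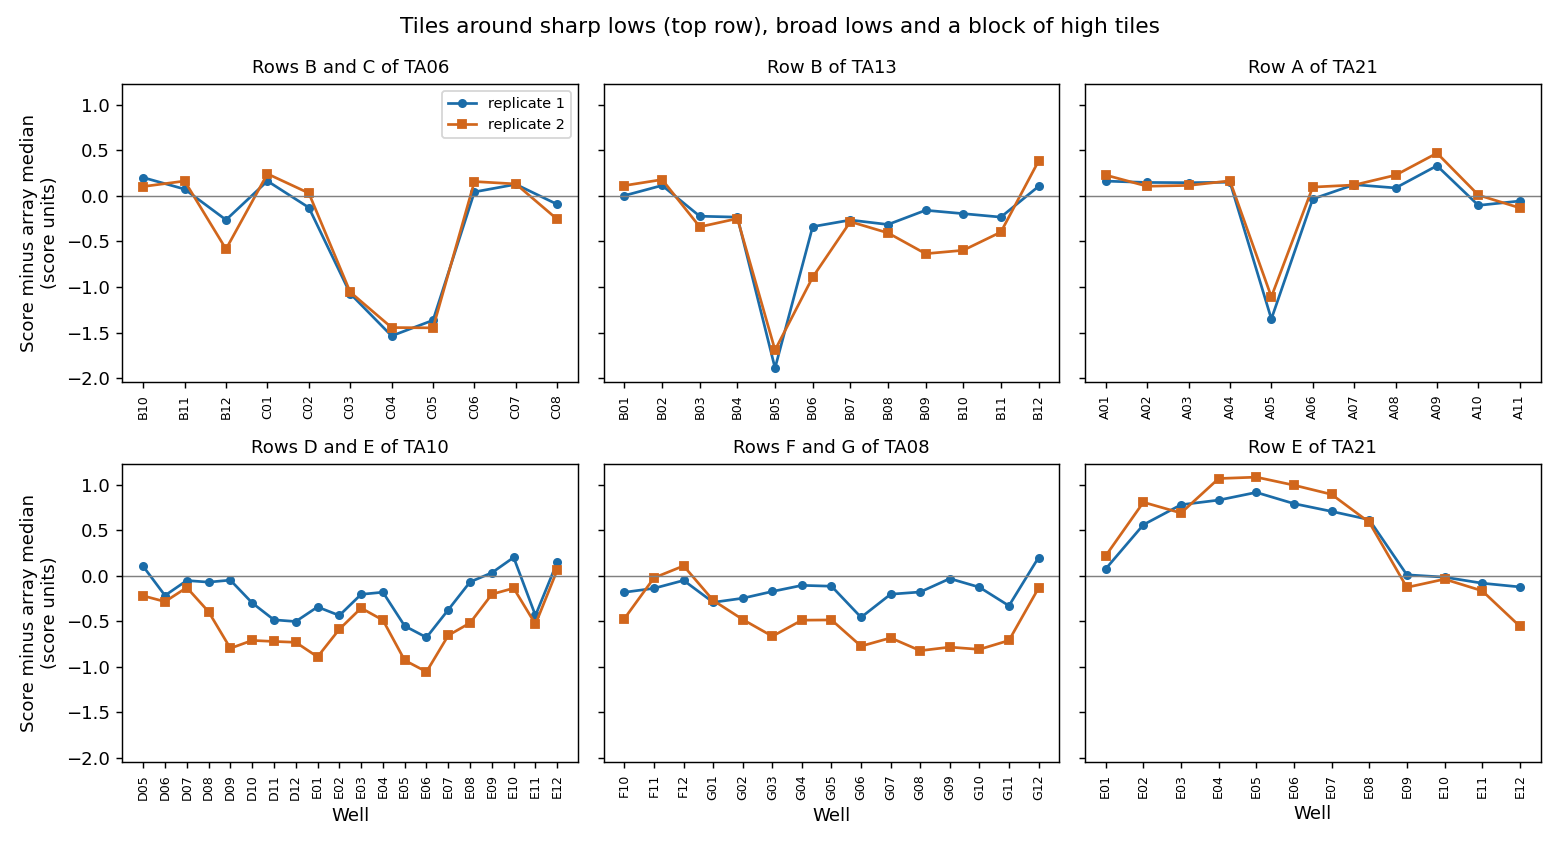
Score minus the array median (vertical axis, score units, same scale in all panels) at successive wells (horizontal axis) for 6 places in the set, blue circles for replicate 1 and orange squares for replicate 2. At the tiles of the top row at -1 unit or lower the replicates lie within 0.24 units of each other, while in the broad lows of TA10 and TA08 replicate 2 lies below replicate 1 at most tiles.

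The longest stretches below were in plates TA10, TA08 and TA12. TA10D09 to TA10E08 had 12 tiles, with medians of -0.36 units in replicate 1 and -0.71 in replicate 2. It opened at TA10D09 with -0.05 and -0.80 units, reached its lowest at TA10E06, and closed at TA10E08 with -0.07 and -0.52. At both ends replicate 1 was near the array median, and the distance lay in replicate 2.

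TA08G01 to TA08G11 had 11 tiles, with medians of -0.18 and -0.68 units. TA08G01 had -0.29 and -0.27, TA08G06 had -0.46 and -0.77, and TA08G11 had -0.33 and -0.71. TA10C04 to TA10C12 had 9 tiles, with medians of -0.26 and -0.73. TA10C04 had -0.30 and -0.71 units, TA10C09 had -0.37 and -0.97, and TA10C12 had -0.26 and -0.79. TA12F05 to TA12G01 also had 9 tiles, with medians of -0.16 and -0.59. The median of replicate 2 lay 2.00 times as far from the array median as that of replicate 1 in the first of these stretches, 3.85 times in TA08G01 to TA08G11 and 2.79 times in TA10C04 to TA10C12.

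This contrast between deep and moderate tiles held across the set as a description. The 6 tiles at -1 unit or lower had medians of -1.36 units in replicate 1 and -1.28 in replicate 2, and replicate 2 was the farther from 0 at 2 of them. The 83 tiles between -1 and -0.5 had medians of -0.39 and -0.76, and replicate 2 was the farther at 81 of them. The 327 tiles between -0.5 and -0.25 had medians of -0.21 and -0.48, with replicate 2 farther at 299.

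On the high side the 219 tiles between 0.25 and 0.5 units had medians of 0.24 and 0.42, with replicate 2 farther at 198. The 35 tiles between 0.5 and 1 had 0.65 and 0.76, with replicate 2 farther at 24, and the 10 tiles at 1 or higher had 1.17 and 1.26, with replicate 2 farther at 7. Over all features the medians at -1 or lower were -1.37 and -1.42 (23 features), and between -1 and -0.5 they were -0.44 and -0.73 (679 features). The levels were cut on the mean of the same replicates, so a larger spread in 1 replicate shows in them by construction.

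The replicates were positively related over the tiles, with a Pearson coefficient of 0.80 and a Spearman coefficient of 0.78 (2002 tiles of the same arrays, given as a description). Without plate TA01, Pearson's r was 0.77. Over all features it was 0.84, and in plates TA29 to TA34, TA52 to TA99 and TB00 to TB49 it was 0.77, 0.79 and 0.78. Within single plates of the set it ran from 0.63 in TA05 to 0.94 in TA01. Both replicates had the same sign at 1586 tiles (79.2%), against 81.1% of all features, and they lay over 0.5 units apart at 88 tiles (4.40%), against 2.44% of all features. Outside the runs of high plates the latter share was 5.42% in plates TA29 to TA34, 3.13% in TA52 to TA99 and 2.25% in TB00 to TB49. None of the 88 was in TA01.

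The 3 tiles with the widest gaps had replicate 2 as the lower. TA13F11 had 0.27 units in replicate 1 and -0.70 in replicate 2. TA05F12 had 0.09 and -0.84, and its neighbour TA05F11 had -0.11 and -1.02. At TA05F11 and TA05F12 the mean of the replicates passed the threshold below, although replicate 1 was close to the array median.

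Plate medians varied less than single tiles. In 7 of the 21 plates the median lay above 0 in both replicates, in 8 below 0 in both, and in 6 the replicates disagreed in sign. No plate reached 0.1 units from the array median in both replicates, on either side. Of the variance of the tiles' averaged scores, 7.90% lay between plates, and 6.32% without TA01, so most of the variation lay within plates. Over the 231 plates of the array, which include the runs of high plates, the share was 30.8%. Outside those runs it was 12.5% in plates TA29 to TA34, 9.27% in TA52 to TA99 and 10.0% in TB00 to TB49.

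The lowest plates were in the middle of the set. TA08 had medians of -0.07 units (replicate 1) and -0.28 (replicate 2), with 37 of 96 tiles below and 4 above. TA10 had -0.02 and -0.24, with 35 below and 8 above. TA13 had -0.08 and -0.19, with 32 below and 5 above, and TA09 had -0.07 and -0.12, with 18 below and 7 above.

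In these plates replicate 2 was the lower, by 0.05 to 0.22 units. At the far end of the set, TA20 had 0.06 and 0.13 with 19 tiles above and 12 below, and TA21 had 0.08 and 0.12 with 20 above and 6 below. TA01 had 0.04 and 0.16, with 26 above and 15 below. In 16 plates more tiles passed below than above, and in 5 (TA01, TA17, TA19, TA20 and TA21) more passed above. This was with centring on the median over all features, a choice on which the balance of calls depended.

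The other 14 plates had medians between -0.04 and 0.07 units in replicate 1 and between -0.09 and 0.08 in replicate 2. TA02 had 0.03 and -0.007, TA03 had -0.01 and -0.04, TA04 had 0.06 and 0.04 and TA05 had -0.008 and -0.09. TA06 had 0.02 and 0.08, TA07 had -0.04 and -0.05, TA11 had -0.03 and -0.04 and TA12 had 0.07 and 0.007. TA14 had 0.01 and 0.001, TA15 had -0.02 and 0.002, TA16 had 0.01 and -0.04, TA17 had 0.07 and -0.02, TA18 had 0.04 and -0.04 and TA19 had 0.04 and -0.006. The plates TA06 and TA07, which held 2 of the deep lows, thus had medians close to 0.

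**Figure D4:**
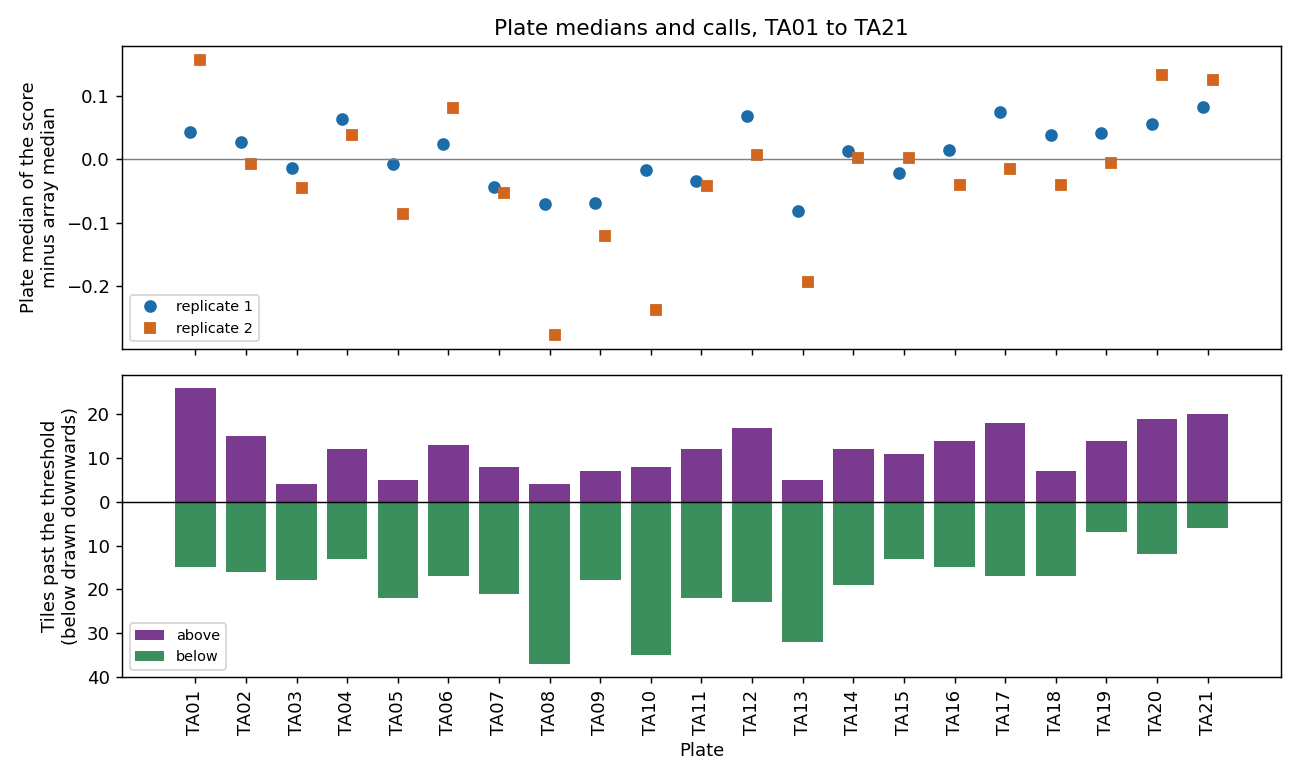
Top, median score minus the array median (score units) of each plate, blue circles for replicate 1 and orange squares for replicate 2; bottom, number of tiles per plate past the threshold above (upward bars) and below (downward bars). TA08 had the most tiles below, 37, and TA01 the most above, 26.

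Within the plates neither rows nor wells stood out. The median of the mean score lay between -0.07 and 0.03 units over the 8 row letters and between -0.06 and 0.05 over the 12 well numbers. Without TA01 the rows ran from -0.09 to 0.03 units and the wells from -0.06 to 0.03. Well codes were complete on 17 plates. The other 4 plates had 94 tiles (TA17), 95 (TA19), 91 (TA20) and 90 (TA21), and the 14 remaining codes were not analysed here.

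Neighbouring tiles had similar scores. With plate medians removed, successive tiles correlated with r = 0.60 after averaging the replicates (2001 pairs of the same arrays, as a description), and with r = 0.48 when a tile in replicate 1 was set against the next tile in replicate 2. The correlation was 0.34 at a distance of 2 tiles, 0.19 at 4 and 0.08 at 8. Without plate TA01 these values were 0.54, 0.25, 0.09 and 0.03, lower at each of these distances.

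Pairs across a row end correlated with r = 0.51 (147 pairs) and pairs across a plate end with r = 0.71 (20 pairs). At a distance of 1 tile the values in plates TA29 to TA34 (554 tiles), TA52 to TA99 (4602 tiles) and TB00 to TB49 (4795 tiles) were 0.57, 0.54 and 0.57. At 4 tiles they were 0.15, 0.09 and 0.14. Whether the sets differ was not tested.

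**Figure D5:**
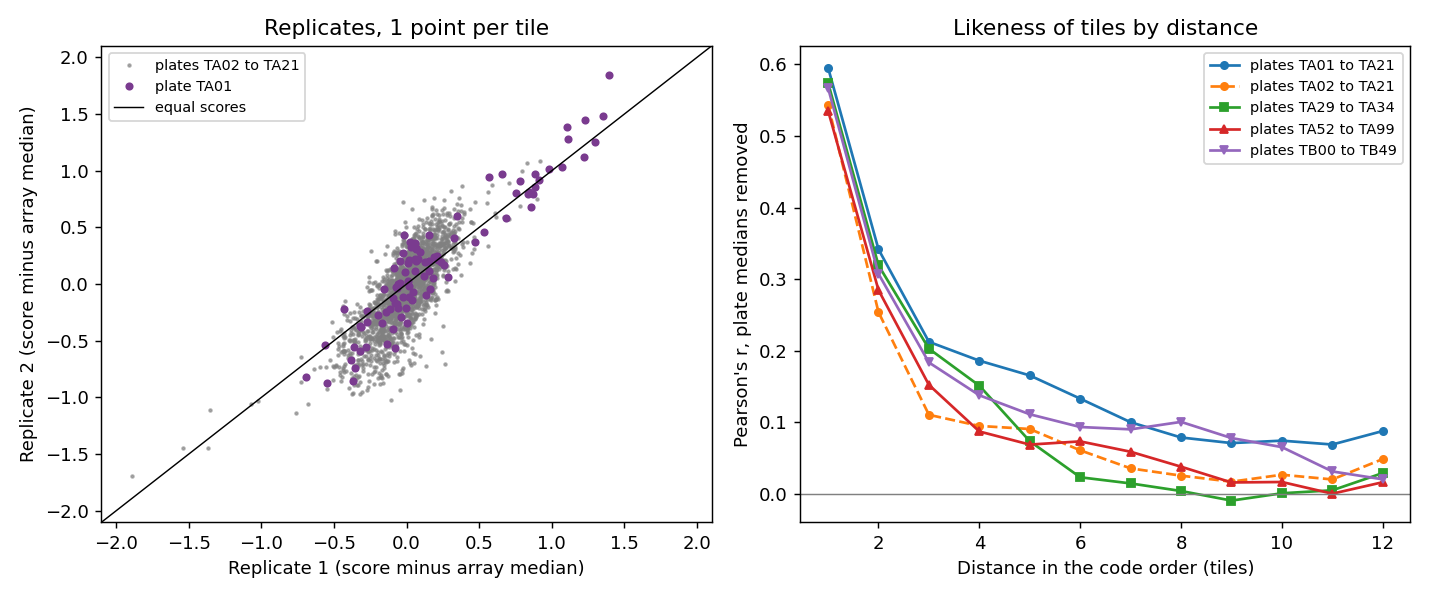
Left, replicate 2 against replicate 1 (score minus the array median, score units), 1 point per tile, purple for plate TA01 and grey for TA02 to TA21, with the line of equal scores; right, Pearson's r between tiles at distances of 1 to 12 tiles, plate medians removed, for the set with and without TA01 and for 3 other sets of plates. The 6 lowest tiles lie within 0.24 units of the line of equal scores, the highest tile, TA01A08, lies 0.45 units off it, and removing TA01 lowers the curve at each distance shown.

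The width of highs and lows was also read in the replicate that had not been used to find them. Of 16 tiles that were the lowest within 3 tiles on either side and at -0.5 units or lower in replicate 1, 15 were also at -0.5 or lower in replicate 2. Their mean in replicate 2 was -0.88 units at the tile itself, -0.41 and -0.44 at the tiles before and after it, and -0.19 and -0.07 at 2 tiles away. Farther out it stayed below 0, between -0.16 and -0.12 at 3 to 6 tiles before. After the tile it was -0.08 at 3 tiles and -0.20, -0.26 and -0.31 at 4, 5 and 6 tiles. Of 8 tiles picked in the same way on the high side, 7 were at least 0.5 units above in replicate 2. The means were 0.90 at the tile, 0.55 and 0.63 beside it, and 0.38 and 0.30 at 2 tiles away. Without plate TA01, which held 2 of the 8, they were 0.73 at the tile, 0.50 and 0.44 beside it, and 0.28 and 0.07 at 2 tiles away.

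Picked in replicate 2 instead, there were 108 lows, with a mean in replicate 1 of -0.34 units at the tile and -0.11 and -0.13 beside it, and 13 of them were at -0.5 or lower in replicate 1. The sign was shared at 106 of the 108, against 79.2% of the set and 81.1% of all features, shares that include tiles near 0. The 50 highs picked in replicate 2 had a mean of 0.32 units in replicate 1 and 0.19 on both sides. Of these 50, 7 were at least 0.5 units above in replicate 1, and 49 shared the sign. The cut of 0.5 units was the same in both replicates, although their SDs over tiles were 0.23 and 0.37 units. Counts of picked tiles were not made over all features, and the edge of the set was chosen on both replicates, so they are a description. The first 6 and last 6 tiles of the set could not be picked, which leaves out the first 6 tiles of row A of TA01.

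Set beside plates elsewhere on the array that lie outside the runs of high plates, the tiles had 12.5% above and 19.7% below. Plates TA29 to TA34 had 13.9% above and 16.4% below, TA52 to TA99 12.5% and 23.4%, and TB00 to TB49 8.01% and 21.6%. The longest stretch above was 19 tiles in TA01 to TA21, and 9, 14 and 39 tiles in the other 3 sets. The longest stretch below was 12 tiles, and 5, 11 and 10 tiles in the others. The sets differ in size (2002, 554, 4602 and 4795 tiles), and a larger set leaves more room for a long stretch. Of the tiles above, 32.7% lay in stretches of 3 tiles or more, against 67.5%, 50.1% and 39.3% in the others. Of the tiles below, 47.8% did, against 36.3%, 51.5% and 58.1%. These differences were not tested.

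None of the last 3 tiles of the set passed the threshold. These, TA21H10, TA21H11 and TA21H12, had -0.08, -0.16 and -0.27 units in replicate 1 and 0.02, 0.06 and -0.03 in replicate 2. The first 3 measured tiles of the next plate, TA22A02, TA22A03 and TA22A04, had -0.07, 0.01 and -0.13 units in replicate 1 and -0.33, 0.21 and -0.39 in replicate 2. TA22A01, the well next to the boundary, was not among the measured features. Of the 60 measured tiles of TA22, 44 passed above, but none of these 3 did. Where within the plate the high scores began was not examined.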

How the data were processed

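Seedling chromatin precipitated with the H3 antibody was hybridised with its input to 2-colour arrays, per the labels. The deposited score is 1 ratio score per feature and array. The sources used here do not state how the authors normalized it, its log base, its numerator or the genome build. Of 21800 listed features, 21732 had values. Both arrays of a pair were averaged with no change in any value, and each replicate was centred on its median over all features (0.23 units in replicate 1, 0.13 in replicate 2). The test of every feature against 0 used limma 3.58.1 (lmFit, then eBayes) in R 4.3.3. The p-values were adjusted by Benjamini-Hochberg over all features, with a threshold of 5%. The prior degrees of freedom were infinite. On simulated data with 21732 features, the test recovered 1.5% of 200 features shifted by 0.25 units, 81.5% of those shifted by 0.5 and 100% of those shifted by 1. Unchanged features made up 6.32% of its calls at 0.5 and 5.66% at 1. The simulated noise was independent and equally wide in both replicates, with only those 200 features shifted. In the data the SD of replicate 2 over all features was 1.53 times that of replicate 1. There 17.0% of all features passed above and 19.4% below, so the simulated shares do not carry over to the calls made here. Stretches are successive measured tiles on the same side, also across row and plate ends. Correlations and picked highs and lows were computed with Python 3.11.15, numpy 2.4.6, scipy 1.17.1 and pandas 2.3.3, and plots with matplotlib 3.10.9. The labels do not say if the replicates are separate cultures, so their spread may be technical, and precision is limited by the number of arrays.

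The members, the lists and the rules were chosen with earlier results of these data known. Tiles named are the 10 highest and 10 lowest, the first, extreme and last tile of the 3 longest stretches on each side, the 3 with the widest gap between replicates, the 3 on either side of the edge at TA22, row A of TA01, and all 21 plates. Other tiles were named after their values had been seen. Alternatives covered the centring, scaling, normalization, variance model, threshold, plates and replicates used.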

Additional observations from a re-analysis of the deposited data

How the results depend on the processing

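The balance of calls depended on the centre and on the variance model. Against 251 tiles above and 395 below, there were 650 above and 98 below without centring, and 131 above and 464 below with each replicate centred on its mode. Without the runs of high plates there were 301 above and 305 below, so the lean to the low side was nearly gone. Both of these counts stayed within 1.5 times, and the shares of the 18445 features in that fit were 11.6% and 17.5%. With trend and robust variance together there were 83 above and 8 below, although either option alone kept both counts within 1.5 times. Quantile normalization gave 383 above, a threshold of 1% gave 148 above, and a distance of at least 0.5 units with no test gave 45 above and 89 below. With 1 replicate left there is no test, and the number at least 0.5 units away ran from 36 to 109 above and from 23 to 227 below, the lower values without replicate 2. Over all features 34.6% were above and 3.70% below without centring, and 9.95% and 0.175% with trend and robust variance. With the mode these shares were 12.1% and 23.3%. The share of all features above was 22.9% with quantile normalization and 12.8% at a threshold of 1%. The stretches above numbered 83 at 1% against 143. The longest above had 19 tiles, and 7 without plate TA01, an alternative chosen after seeing the data, as were the single variance options and pairs across a plate end. The median of the set was 0.17 units without centring and -0.078 with the mode, and ran from -0.03 to 0.006 with 1 replicate. The correlation of successive tiles, 0.60, was 0.54 without TA01, 0.48 between replicates, 0.51 across row ends and 0.71 across plate ends, and ran from 0.51 to 0.62 with 1 replicate. The 21 tiles of TA01 at least 0.5 units above stayed between 21 and 25 under each setting run, and the other counts stayed within 1.5 times. The causes were not tested. No paired analysis was possible because the study has 1 group.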
